A study of Mus musculus with 4 samples.

Results

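The genes described here are 10 regulators of gastrulation and mesendoderm formation: T (Brachyury), Eomes, Mixl1, Gsc, Mesp1, Nodal, Lefty1, Lefty2, Cer1 and Bmp4. They were taken by symbol from a table of mRNA-seq values, in which all 10 were found among 37310 Ensembl genes. The libraries came from mESCs of the JM8 line (strain C57BL6/N), with 2 of them labelled wild-type and 2 labelled Bmal1-/-. Both groups grew without feeders on gelatin, in serum-free N2B27 with LIF, 1 µM of the Mek inhibitor PD0325901 and 3 µM of the Gsk3 inhibitor CHIR99021 (2i + LIF). The study asked how loss of the clock factor Bmal1 alters gene expression in pluripotent cells. The Bmal1-/- line is 1 clone, made by CRISPR editing of JM8 cells and carrying frameshift mutations in both alleles, so that other differences between this clone and its parent cannot be told apart from the genotype. Reads on genes were 21737170 and 21504265 in wild-type and 23329034 and 23021702 in the libraries labelled Bmal1-/-.

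At gastrulation, epiblast cells move through the primitive streak and become mesoderm and definitive endoderm. Bmp4 from the extraembryonic ectoderm, Wnt ligands and Nodal sustain one another and set up the streak, where transcription factors such as T, Eomes, Mixl1 and Gsc are switched on. Nodal signals through activin receptors, Smad proteins and Foxh1, and it induces its own antagonists Lefty1 and Lefty2, so that the antagonists serve as a readout of the pathway; in mESCs Nodal and both Lefty genes are already transcribed before differentiation.

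The targeted gene, Bmal1, is listed as Arntl. Normalized values, which are read counts divided by a scaling factor of each library, were 678 and 733 in wild-type and 556 and 590.3 in the libraries labelled Bmal1-/-. Both libraries labelled Bmal1-/- were below both wild-type libraries (log2 fold change −0.30, adjusted p = 0.0011 from limma, the test described below). Transcript was present in all 4 libraries, whereas the study detected no Bmal1 mRNA by RT-qPCR in Bmal1-/- mESCs. It also reports no detectable Bmal1 protein there by Western blot. Why the 2 mRNA measurements differ was not tested. Gene-level values cannot show small insertions or deletions, so that libraries are named by their labels throughout. The mESC label was compared with 11 markers of naive pluripotency, among them Pou5f1, Nanog and Esrrb. All 11 were above 590 in every library. Their summed level, in normalized values per kb of exon, was 40216 and 40059 in the wild-type libraries against 40616 and 41081 in those labelled Bmal1-/-. The most abundant was Pou5f1 in 3 libraries and Nanog in Bmal1-/- replicate 2.

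The test was limma, fitted to log2(value + 1). It covered the 14510 genes whose mean over the libraries reached 10, with Benjamini-Hochberg adjustment of p across these genes. Of the 10 genes 8 passed this filter, and Cer1 and Mesp1 did not. With an adjusted p under 0.05, 4 of the 8 were lower in the libraries labelled Bmal1-/-, namely Bmp4, Eomes, Lefty1 and Lefty2, where 28.6% of all genes tested were lower. By the same limma test 0 of the 8 were higher, against 24.0% of all genes tested; at an unadjusted p under 0.05 the count was also 0, as it was in edgeR and DESeq2 on the recovered reads. No gene of the 8 passed 2-fold with an adjusted p under 0.05 (0 in limma, also at an unadjusted p under 0.05, and 0 in edgeR and in DESeq2), against 7.21% of all genes tested. In 5 of the 8 genes the values of the labels did not overlap, as was the case for 76.0% of all genes tested. The median log2 fold change was −0.39 for the 8 genes and −0.03 for all genes tested. These p-values rest on 2 cultures of each label, with each gene's variance drawn toward a trend over all genes (prior degrees of freedom 18.1). They therefore do not measure only the spread of that gene between cultures. In limma without the trend, adjusted p was 0.0085 for Bmp4, 0.018 for Eomes, 0.015 for Lefty1 and 0.023 for Lefty2. In bulk RNA, fewer expressing cells and less RNA per cell cannot be told apart. Because 1 is added before the logarithm, fold changes of weakly expressed genes come out too small.

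**Figure D1:**
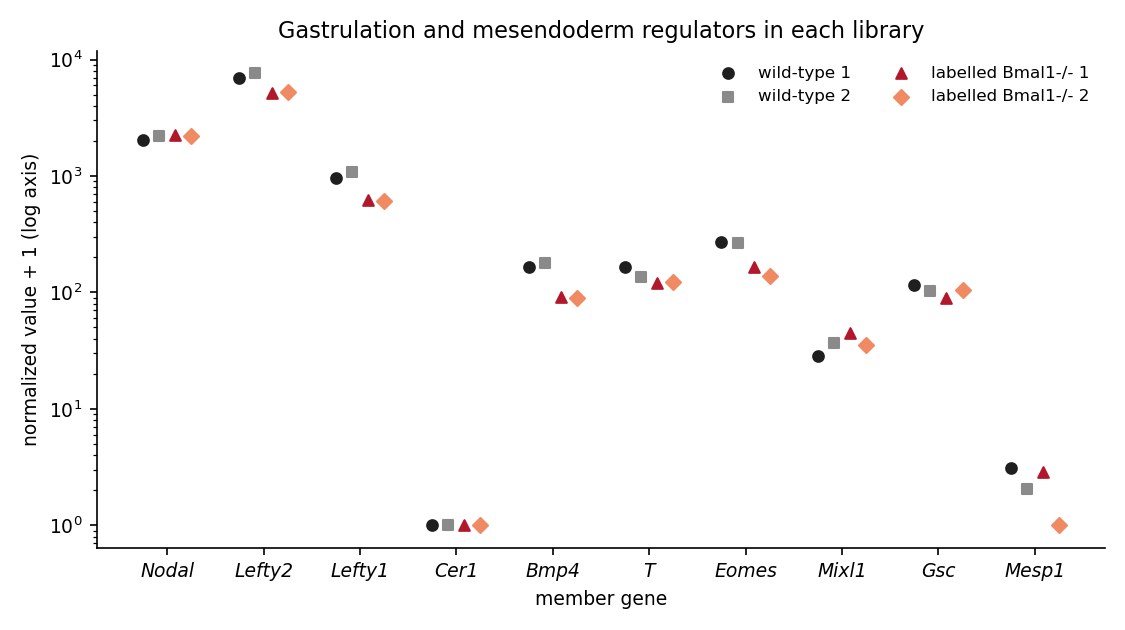
Normalized value plus 1 (log axis) of the 10 genes in each of the 4 libraries, with 1 point per library. Bmp4, Eomes, Lefty1, Lefty2 and T have both libraries labelled Bmal1-/- below both wild-type libraries, Nodal lies between 2047 and 2249, and Cer1 is at 0 throughout.

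Nodal (ENSMUSG00000037171, mm9 chromosome 10, 60880720 to 60888086, plus strand) encodes the ligand. Normalized values of Nodal were 2047 and 2225 in wild-type and 2249 and 2214 in the libraries labelled Bmal1-/-. Values of the labels overlapped, and the difference was within the spread between replicates (log2 fold change 0.06, 95% confidence interval −0.04 to 0.17, adjusted p = 0.29 from limma). This depended on the scaling: Nodal was called higher with equal library totals (0.12, adjusted p = 0.041) and not with median-ratio size factors (0.08, adjusted p = 0.19) or quantile normalization (0.11, adjusted p = 0.096); without wild-type replicate 1 its adjusted p was 0.96. Of the 16 alternatives fitted, 1 other scaling, whose basis is not described, also called Nodal higher.

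Lefty1 and Lefty2 encode the secreted antagonists that bind Nodal and its co-receptors. Lefty1 (ENSMUSG00000038793, chromosome 1, 182865153 to 182868531, plus strand) had values of 958 and 1084 in the wild-type libraries against 618 and 606 in the libraries labelled Bmal1-/-. Both libraries labelled Bmal1-/- lay below both wild-type libraries, and Lefty1 fell to 60.0% of the wild-type mean (log2 fold change −0.73, standard error 0.07, adjusted p = 1.7e-08 from limma). Lefty2 (ENSMUSG00000066652, chromosome 1, 182823239 to 182829234, plus strand) was the most abundant of the 10 genes, at 6898 and 7621 in the wild-type libraries against 5201 and 5219.95 in those labelled Bmal1-/-. Again the labels did not overlap, and Lefty2 fell to 71.8% of the wild-type mean (log2 fold change −0.48, standard error 0.04, adjusted p = 2.7e-08 from limma). The adjusted p stayed under 0.05 in all 16 alternatives for both genes.

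The coding sequences of Lefty1 and Lefty2 have the same length, 1107 bases, and are identical at 91.9% of positions. Of all windows of 75 bases, the read length, 11.2% of the Lefty1 transcript and 7.21% of the Lefty2 transcript also occur in the other gene, so that single values of the pair are uncertain to the extent that reads were shared between them. Their sum does not depend on how shared reads were split, though it would if such reads were left out. It was 7856 and 8704 in the wild-type libraries against 5819.6 and 5826 in those labelled Bmal1-/-, which is 70.3% of the wild-type mean.

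Set against the ligand per kb of exon, the ratio of Lefty1 to Nodal was 0.558 and 0.580 in the wild-type libraries against 0.328 and 0.326 in those labelled Bmal1-/-. For Lefty2 to Nodal the ratio was 2.70 and 2.75 against 1.86 and 1.89. A ratio within a library does not depend on its scaling, and both ratios were lower in each library labelled Bmal1-/- than in each wild-type library; the ratios themselves were not tested. Cer1, a secreted antagonist of Nodal, Bmp and Wnt ligands made in anterior endoderm, had 0 reads in all 4 libraries. At these depths a floor of 3 reads corresponds to normalized values of 2.82 to 3.19, which covers counting error only.

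**Figure D2:**
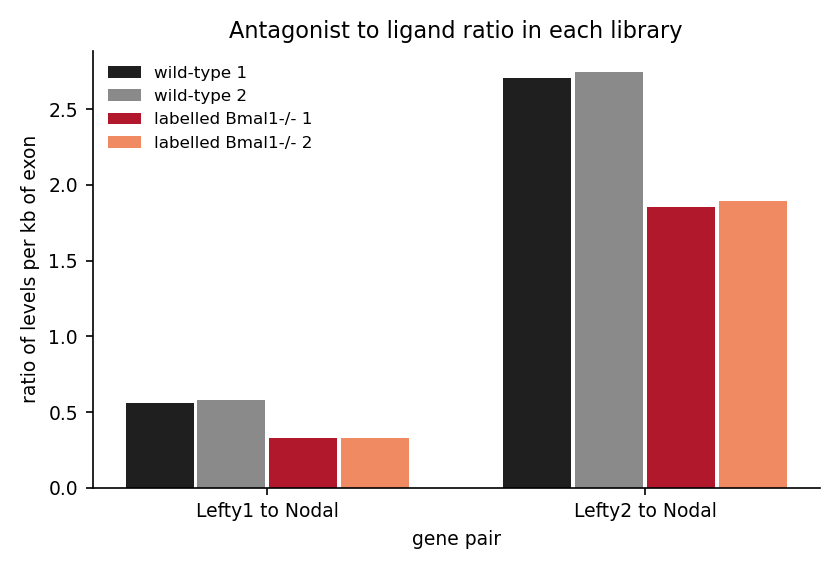
Ratio of the Lefty1 or Lefty2 level to the Nodal level, both per kb of exon, with 1 bar per library and the axis from 0. The ratios are 0.558 and 0.580 against 0.328 and 0.326 for Lefty1, and 2.70 and 2.75 against 1.86 and 1.89 for Lefty2.

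Bmp4 (ENSMUSG00000021835, chromosome 14, 47003195 to 47010344, minus strand) encodes the Bmp ligand that induces the streak and the germ line in the embryo. Its values were 163 and 179.5 in wild-type and 90.2 and 87.7 in the libraries labelled Bmal1-/-. In the limma fit to all 4 libraries, Bmp4 had the most negative log2 fold change of the 8 genes, at −0.94 (95% confidence interval −1.22 to −0.66, adjusted p = 6.8e-06 from limma). The labels did not overlap. The libraries labelled Bmal1-/- held 51.9% of the wild-type mean. The estimate passed 2-fold with quantile normalization (−1.09) and without wild-type replicate 1 (−1.01). Without Bmal1-/- replicate 1 the estimate of Eomes was the more negative, at −0.962 against −0.957 for Bmp4. Gm15217 and Gm15222 are annotated over Bmp4 on the opposite strand, and neither exceeded a value of 3.16 in any library. The strand setting of the counting is not given, so that reads of these genes may not be separated from those of Bmp4.

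Promoter windows from RefSeq (build GRCm38.p6) were held for 7 of the 10 genes, and not for Mixl1, Lefty1 and Lefty2. The 250 bases before the annotated start were searched on both strands for CACGTG, the E-box that Bmal1 and Clock are known to bind, for the Tcf/Lef motif CTTTGAT, the Foxh1 motif AATNCACA and the T-box motif AGGTGTGA. The windows of Bmp4 and Eomes, the called genes with an entry, and of Nodal, the ligand that was not called, are shown 5′ to 3′ in the direction of transcription, with a motif match in capitals. They lie at chr14:46390670-46390919 (minus strand), chr9:118477939-118478188 (plus strand) and chr10:61417722-61417971 (plus strand).
Bmp4: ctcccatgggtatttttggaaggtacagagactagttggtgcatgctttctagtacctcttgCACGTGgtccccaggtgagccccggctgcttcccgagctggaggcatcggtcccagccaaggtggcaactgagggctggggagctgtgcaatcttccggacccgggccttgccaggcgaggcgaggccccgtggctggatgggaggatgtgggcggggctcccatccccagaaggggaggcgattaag
Eomes: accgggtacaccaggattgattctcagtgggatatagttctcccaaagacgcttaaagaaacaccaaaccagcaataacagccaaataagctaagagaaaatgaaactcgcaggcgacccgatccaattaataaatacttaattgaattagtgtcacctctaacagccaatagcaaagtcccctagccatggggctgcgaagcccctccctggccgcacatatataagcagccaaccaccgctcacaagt
Nodal: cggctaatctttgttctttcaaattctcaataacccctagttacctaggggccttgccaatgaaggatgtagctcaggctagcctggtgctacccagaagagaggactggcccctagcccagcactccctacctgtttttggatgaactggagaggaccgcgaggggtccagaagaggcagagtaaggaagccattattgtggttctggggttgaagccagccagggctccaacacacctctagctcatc
CACGTG occurred in the Bmp4 window, 188 to 183 bases before the start, and in no other of the 7; 6.02% of all 32851 windows hold it. CTTTGAT occurred in the Mesp1 window only, 31 to 25 bases before the start, and 3.21% of all windows hold it. The Foxh1 and T-box motifs occurred in 0 of the 7 windows, against 3.18% and 1.12% of all windows. A match describes letters and not binding, and a window without one says nothing about the factor.

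The T-box transcription factors gave different results. Eomes (ENSMUSG00000032446, chromosome 9, 118387330 to 118395250, plus strand), needed for definitive endoderm and for the exit of mesoderm from the streak, had values of 271 and 262 in the wild-type libraries against 163 and 136 in the libraries labelled Bmal1-/-. Both labelled Bmal1-/- values were below both wild-type values, and Eomes fell to 56.2% of the wild-type mean (log2 fold change −0.83, standard error 0.11, adjusted p = 4.1e-06 from limma). T (ENSMUSG00000062327, chromosome 17, 8627288 to 8635361, plus strand), the regulator of posterior mesoderm and notochord, had values of 163 and 135 against 119 and 122. The labels did not overlap, but the replicate spread of the wild-type libraries was large beside the difference (log2 fold change −0.30, 95% confidence interval −0.58 to −0.02, adjusted p = 0.071 from limma). T was called lower with quantile normalization (−0.44, adjusted p = 0.016) and without wild-type replicate 2 (−0.43, adjusted p = 0.014), and adjusted p reached 0.42 without wild-type replicate 1.

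The homeobox genes Mixl1 and Gsc act in the streak and its anterior end. Mixl1 (ENSMUSG00000026497, chromosome 1, 182623174 to 182627165, minus strand) had low values, 27.4 and 36.1 in the wild-type libraries against 44.2 and 34.3 in those labelled Bmal1-/-. The labels overlapped, and the interval of the log2 fold change, −0.22 to 0.82 around 0.30, included changes in both directions (adjusted p = 0.33 from limma). With 1 library left out the estimate ranged from 0.11 (without wild-type replicate 1) to 0.49 (without wild-type replicate 2). Gsc (ENSMUSG00000021095, chromosome 12, 105709419 to 105711537, minus strand) had values of 115 and 101 against 89.2 and 105. Here too the labels overlapped (log2 fold change −0.15, 95% confidence interval −0.47 to 0.16, adjusted p = 0.42 from limma), and the estimate ranged from −0.27 without Bmal1-/- replicate 2 to −0.04 without Bmal1-/- replicate 1. Mesp1 (ENSMUSG00000030544, chromosome 7, 86937127 to 86938674, minus strand), the bHLH factor of early cardiac mesoderm, had 2 and 1 reads in the wild-type libraries against 2 and 0 in those labelled Bmal1-/-. All 4 values were at or under the floor of 3 reads, and no fold is given.

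**Figure D3:**
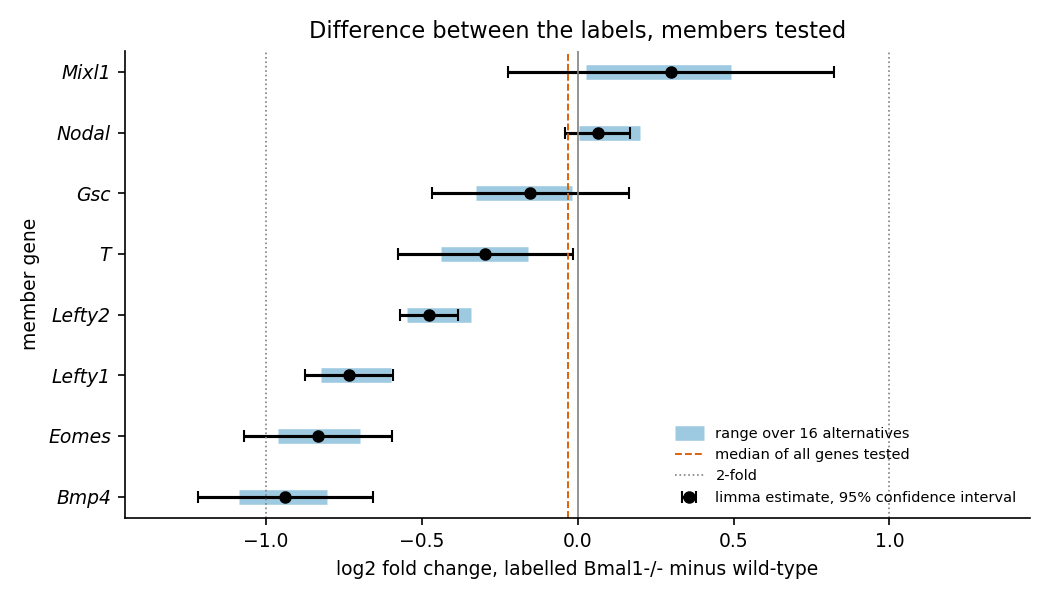
Log2 fold change of the 8 genes tested, libraries labelled Bmal1-/- minus wild-type, with limma's 95% confidence interval (bars) and the range over 16 alternatives (blue). Bmp4, Eomes, Lefty1 and Lefty2 lie between −0.94 and −0.48 with intervals below 0, whereas Nodal, Gsc and Mixl1 have intervals that include 0.

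Levels were compared between genes per kb of exon. In the wild-type libraries the order of mean levels was Lefty2 (2780.4), Nodal (1019.7), Lefty1 (580.5), Gsc (85.3), Bmp4 (77.1), T (64.5), Eomes (64.2), Mixl1 (13.8) and Mesp1 (1.24), with Cer1 at 0. The ranges of Gsc and Bmp4 overlapped, as did those of T and Eomes, so that these neighbours did not differ beyond their spread. In the libraries labelled Bmal1-/- the order was Lefty2 (1996), Nodal (1065), Lefty1 (348), Gsc (76.7), T (52.2), Bmp4 (40.0), Eomes (36.1), Mixl1 (17.1) and Mesp1 (0.737), and only Mesp1 and Cer1 overlapped. Bmp4 thus stood above T in wild-type and below it in the libraries labelled Bmal1-/-. Nodal, Lefty1 and Lefty2 together held between 93.0% and 94.3% of the summed values of the 10 genes in each library. Lefty2, Nodal and Lefty1 were at percentiles 96.6, 89.7 and 81.7 of the wild-type levels per kb of all genes tested, and the other 5 genes tested were between percentiles 16.2 and 42.6.

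Mixl1, Lefty2 and Lefty1 share a stretch of 245 kb on chromosome 1, with 196 kb between Mixl1 and Lefty2 and 35.9 kb between Lefty2 and Lefty1. Of 8 other genes of the table inside that stretch 6 were tested, and 2 were lower with an adjusted p under 0.05 in limma. The histone gene H3f3a was among them, with values of 3266 and 3274 in the wild-type libraries against 2938 and 2745 in those labelled Bmal1-/-, a log2 fold change of −0.20 (adjusted p = 8.5e-04 from limma). It was singled out after its values were seen.

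The other genes of the Nodal pathway were read from a list of 21 genes, of which 17 were tested. In that list 3 were lower and 6 higher with an adjusted p under 0.05 in limma, and the median log2 fold change was 0.01. Beside the counts of this list and of those below stand the shares of all genes tested, 28.6% lower and 24.0% higher. Foxh1, the transcription factor that partners Smad proteins, fell from 1193 and 1139.8 to 793 and 835 (−0.52, adjusted p = 3.6e-07), and Dand5, another antagonist of the Cer1 family, had values of 112 and 92.4 against 70.5 and 62.0 (−0.61, adjusted p = 0.0043; 0.055 without Bmal1-/- replicate 2). Gdf3, a ligand related to Nodal, fell by 0.29 on the log2 scale (adjusted p = 1.8e-05). The proprotein convertases Pcsk6 and Furin, which process the Nodal precursor, were higher, Pcsk6 by 0.66 (adjusted p = 6.4e-11) and Furin by 0.56 (adjusted p = 4.3e-07) on the log2 scale. The co-receptor gene Tdgf1 (Cripto) had a log2 fold change of 0.14 (adjusted p = 0.0056; 0.083 without Bmal1-/- replicate 2). Unfiltered, Dand5 and Tdgf1 were not called, nor was Dand5 with DESeq2 or Tdgf1 in limma without the trend.

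In the Bmp pathway list, 18 of 23 genes were tested, with 1 lower and 6 higher and a median of 0.13. Id1, a direct target of Bmp signalling, was the lower gene, with values of 121 and 142 in the wild-type libraries against 83.6 and 77.2 in those labelled Bmal1-/-, a log2 fold change of −0.70 (adjusted p = 5.2e-04 from limma). Its relative Id3 overlapped between the labels, at 383 and 345 against 367 and 339 (−0.05, adjusted p = 0.69), with a sign that turned under equal library totals and with wild-type replicate 1 or Bmal1-/- replicate 2 left out. The type II receptor gene Bmpr2 rose from 151 and 136 to 302 and 299 (1.06, adjusted p = 6.5e-08). The ligand gene Bmp8b, at 7.37 and 7.44 against 20.7 and 19.1, had a log2 fold change of 1.31 (adjusted p = 0.0067; 0.065 without Bmal1-/- replicate 1). Smad9, at 3.16 and 11.7 against 16.0 and 21.9, had 1.44 (adjusted p = 0.016), which was 0.64 without wild-type replicate 1 (adjusted p = 0.20), 2.25 without wild-type replicate 2 and 1.22 with Bmal1-/- replicate 2 left out (adjusted p = 0.15). The calls of Bmp8b and Smad9 were also lost with DESeq2, and that of Smad9 with a lower or no filter, with quantile normalization and in limma without the trend.

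Wnt signalling is held active in this medium by the Gsk3 inhibitor. Of 18 Wnt genes 13 were tested, with 7 lower and 2 higher and a median of −0.15. Wnt3a, a ligand of the streak, had values of 123 and 124 in the wild-type libraries against 62.0 and 60.1 in those labelled Bmal1-/-, a log2 fold change of −1.01 (adjusted p = 1.6e-05 from limma). Lef1, which binds DNA with β-catenin, fell from 191 and 131 to 70.5 and 64.8 (−1.21, adjusted p = 4.6e-06). The Wnt targets Sp5 and Axin2 fell as well, by 0.59 (adjusted p = 1.1e-05) and 0.29 (adjusted p = 2.9e-04) on the log2 scale, where the call of Axin2 was lost in limma without the trend. The 2 higher genes were the co-receptor gene Lrp6 (0.40, adjusted p = 1.6e-06) and Cdx1, another Wnt target (0.25, adjusted p = 1.7e-04), both named after their values were seen, so that Wnt targets did not all move the same way. Wnt3 was under the filter, at 13.7 and 11.7 against 3.76 and 4.77.

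A list of 18 other streak and mesoderm genes had 9 tested, with 5 lower and 3 higher and a median of −0.13. Snai1, a repressor of E-cadherin in cells that leave the streak, rose from 47.4 and 30.8 to 105 and 83.9, by 1.28 on the log2 scale (adjusted p = 4.3e-05 from limma). Evx1, a homeobox gene of the posterior streak, was at 53.7 and 56.3 against 33.8 and 28.6 (−0.80, adjusted p = 0.0047; 0.052 without Bmal1-/- replicate 2). Mesp2, a relative of Mesp1 that acts in somite formation, was at 10.5 and 5.31 against 14.1 and 19.1 (1.03, adjusted p = 0.048). Its estimate was 0.59 without wild-type replicate 2 (adjusted p = 0.27), 1.23 with Bmal1-/- replicate 1 left out (adjusted p = 0.082) and 0.82 with replicate 2 of that label left out (adjusted p = 0.28). DESeq2 called neither Evx1 nor Mesp2, and the call of Mesp2 was also lost with a lower or no filter, with quantile normalization and in limma without the trend. Fgf8, a ligand of the streak, was under the filter in all 4 libraries, with values from 1.88 to 7.44. Among the 9 genes under the filter, 4 were higher without overlap between the labels and none was lower, with values of 9.54 or less (not tested). The share of 76.0% without overlap covers genes tested only, so no background share stands beside this count.

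Definitive endoderm genes numbered 10, with 6 tested. In limma 0 were lower and 4 higher, against 28.6% and 24.0% of all genes tested, and the median of the 6 was 0.64. At an unadjusted p under 0.05, 4 passed and all were higher, and edgeR and DESeq2 each called 0 lower. Sox17, a transcription factor of endoderm, passed 2-fold and rose from 10.5 and 14.9 to 32.9 and 30.5, by 1.27 on the log2 scale (adjusted p = 0.0020). Gata4 was at 69.5 and 85.0 against 120.2 and 107 (0.55, adjusted p = 0.0061; 0.087 without Bmal1-/- replicate 1), a call also lost unfiltered, with quantile normalization and with DESeq2. Sox17 and Gata4 also stand in the list of primitive endoderm markers, so that both lists count them. The 4 definitive endoderm genes that were not tested were under the filter, with values of 19.1 or less. Of these, 3 had both values of the libraries labelled Bmal1-/- below both wild-type values, and 1 was higher without overlap (not tested). Here too the share of 76.0% covers genes tested only, so no background share stands beside these counts.

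**Figure D4:**
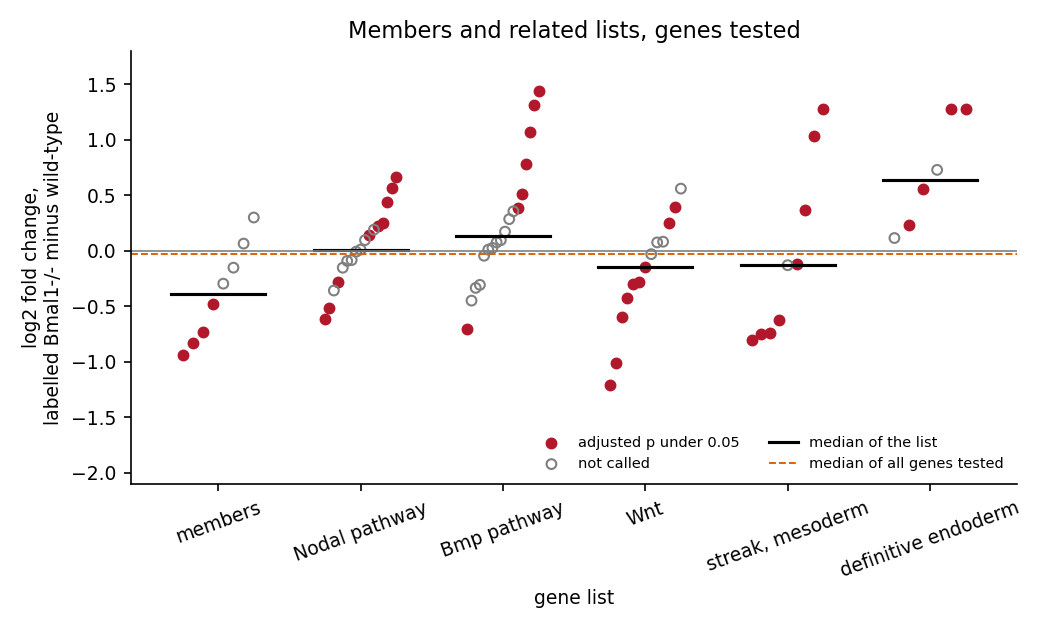
Log2 fold change of each gene tested in 6 lists, with 1 point per gene, filled where the adjusted p is under 0.05, and a bar at the median of each list. The 8 members have a median of −0.39 and no called gene above 0, whereas the definitive endoderm list has a median of 0.64 and no called gene below 0; the median of all genes tested is −0.03.

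Markers of other cell types were summed per kb of exon in each library. Of 11 primitive endoderm markers 5 stand in another list (Foxa2, Gata4, Gata6, Pdgfra and Sox17), Sox17 and Gata4 in that of definitive endoderm. The sum of the primitive endoderm list was 187 and 189 in the wild-type libraries against 361 and 361.1 in those labelled Bmal1-/-. Of its 8 genes tested 6 were higher and 1 lower; the most abundant was Lamb1, and none was at 0 in all libraries. Without Lamb1 the other 10 summed to 125 and 128 against 199 and 195. The laminin and collagen genes Lamb1 (log2 fold change 1.42, adjusted p = 3.6e-14 from limma), Col4a1 (1.44, adjusted p = 2.2e-10) and Col4a2 (1.56, adjusted p = 1.4e-08) rose, while Sox7, a transcription factor of primitive endoderm, fell from 46.4 and 52.1 to 5.64 and 12.4 (−2.41, adjusted p = 6.0e-06). The 2-cell-like list, in which 5 of 7 genes were matched, went from 59.8 and 78.2 to 863 and 855, with 4 of 4 tested genes higher and Zscan4c the most abundant in all but wild-type replicate 1, where Zscan4d was. Zscan4c, Zscan4d, Zscan4f and Usp17la had log2 fold changes of 3.79, 3.50, 3.69 and 3.48 (adjusted p at most 0.0085 over 16 alternatives), and as members of families of similar genes they can share reads.

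Trophoblast markers numbered 9, with sums of 604 and 609 in the wild-type libraries against 383 and 382 in the libraries labelled Bmal1-/-; 2 of 6 tested were lower and 1 higher. The lower sum came from Tfap2c (388 and 392 to 157 and 147), since the other 8 markers together were at 215 and 216 against 226 and 235. Tfap2c, the most abundant, fell by 1.36 on the log2 scale (adjusted p = 1.7e-13 from limma), Cdx2 fell by 0.74 (adjusted p = 0.0043), and Ascl2 had 0.58 (adjusted p = 0.029; 0.077, 0.17 and 0.18 without Bmal1-/- replicate 1, Bmal1-/- replicate 2 or wild-type replicate 2). The 7 formative and primed markers summed to 874 and 816 against 717 and 743. With 4 tested, 3 were lower, including Lef1 and Dnmt3b (−0.26, adjusted p = 2.2e-04), and Dnmt3a was higher (0.59, adjusted p = 4.4e-08); Dnmt3b was the most abundant and Pou3f1 was at 0 in all libraries. The 6 neural markers summed to 159.7 and 168 against 178 and 171, with Nes the most abundant. Without Nes the other 5 summed to 16.2 and 19.5 against 38.3 and 35.6. Pax6 (−1.71, adjusted p = 3.4e-04) was lower, and Sox3 (1.32, adjusted p = 1.4e-04) was among 2 higher genes, of 4 tested. DESeq2 called neither Cdx2 nor Ascl2. Ascl2 was also lost with a lower or no filter, with quantile normalization and in limma without the trend, and Dnmt3b without the trend.

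The 8 fibroblast markers summed to 40.5 and 49.7 against 60.0 and 57.6. Thy1, the most abundant, was the 1 higher gene of 3 tested (0.59, adjusted p = 0.026; 0.057, 0.19 and 0.13 without Bmal1-/- replicate 1, Bmal1-/- replicate 2 or wild-type replicate 1), a call also lost with a lower or no filter, with quantile normalization, with DESeq2 and in limma without the trend, and Lum and Dcn were at 0 in all libraries. Among the 11 naive markers 5 were lower and 5 higher, with a median of −0.04. Dppa3 had the largest change of that list, from 1148 and 1157 to 601 and 590.3 (−0.95, adjusted p = 5.4e-11), while Tfcp2l1 (0.40, adjusted p = 2.4e-07) and Tbx3 (0.36, adjusted p = 9.5e-07) were higher. The part of these marker lists in the differences of Bmp4, Eomes, Lefty1 and Lefty2 was not tested. Ywhaz, used as a reference in the study, had values of 7313 and 7231 against 6372 and 6778 (−0.15, adjusted p = 0.0051; 0.13 without Bmal1-/- replicate 1), and it was not called unfiltered, with equal library totals, quantile normalization or DESeq2, or in limma without the trend.

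**Figure D5:**
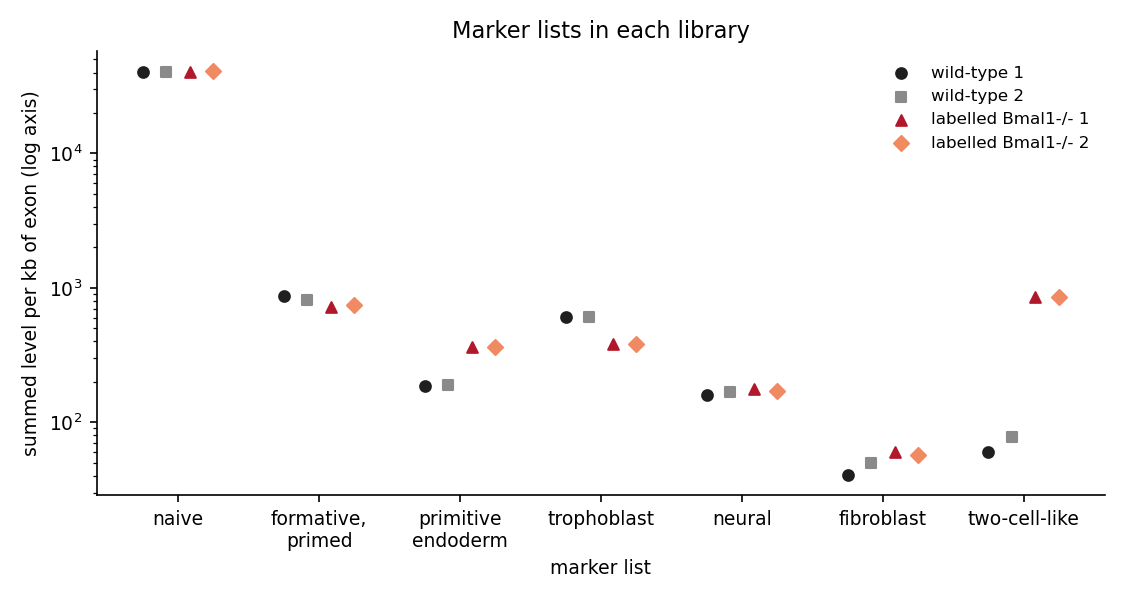
Summed level per kb of exon (log axis) of 7 marker lists in each of the 4 libraries. The naive list lies between 40059 and 41081, and the primitive endoderm and 2-cell-like lists are higher in both libraries labelled Bmal1-/- than in both wild-type libraries.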

How the data were processed

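mRNA was sequenced from 2 wild-type and 2 Bmal1-/- cultures with a stranded kit. Per the study's methods and the submitters' processing notes, reads were demultiplexed with bcl2fastq 2.18.0.12, trimmed with cutadapt 1.9.1 and aligned to mm9 with STAR 2.5.2b; the counter and its strand setting are not given in the sources used here. The deposited values are a normalized signal: for each gene the authors divided the read count by a factor of the library (trimmed mean of M values, NOISeq), without regard to gene length. Every value was a whole multiple of its column's smallest value above 0 (tolerance 0.01 of a read), so that 100% of values were turned back into whole reads. Replicates differed by more than counting error (chi-square per degree of freedom 2.83 for wild-type and 1.84 for Bmal1-/-).

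The test ran in R 4.3.3 with limma 3.58.1, using lmFit followed by eBayes with trend (prior degrees of freedom 18.1). Its input was log2(value + 1), restricted to genes whose mean reached 10, and 2 libraries were compared with 2 without a covariate, with Benjamini-Hochberg adjustment over all 14510 genes and a threshold of 0.05; 2-fold is a log2 fold change beyond 1. Of these genes 7639 were called, 45.7% of them higher; this share was 56.8% with equal library totals. On the whole reads, edgeR 4.0.16 (quasi-likelihood test) called 7682 genes (1091 past 2-fold) and DESeq2 1.42.0 called 5226 (862 past 2-fold). The fits were tested on simulated data. Alternatives changed the filter, pseudocount, scaling, trend or test, added a replicate block, or left out 1 library.

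Gene positions and exon lengths are from the GENCODE annotation of NCBIM37 (mm9). Named genes are the 10 members, Arntl, Ywhaz, the partners Tdgf1, Foxh1, Gdf3, Wnt3, Fgf8, Id1, Id3, Axin2 and Sp5, and from each list the genes past 2-fold with an adjusted p under 0.05 and the 3 with the largest absolute log2 fold change among those with an adjusted p under 0.05; some genes that meet this rule, and the basis of 1 of the 16 alternatives (a scaling), are left out of the texts. The lists (Nodal, Bmp and Wnt pathways, streak and mesoderm, definitive endoderm, and markers of naive, formative and primed, primitive endoderm, trophoblast, neural, fibroblast and 2-cell-like cells) were written by hand from general knowledge; an older symbol was needed for 3 list genes, and Tcstv1 and Tcstv3 (2 genes) were not matched. Members and lists were chosen with earlier results of these data known. Numpy 2.4.6, pandas 2.3.3 and matplotlib 3.10.9 under Python 3.11.15 made the tables and plots. Raw reads were not available and were not analysed.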

Additional observations from a re-analysis of the deposited data

How the results depend on the processing

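Over 16 alternatives the count of members lower with an adjusted p under 0.05 was 4, or 5 with quantile normalization and without wild-type replicate 2, and Bmp4, Eomes, Lefty1 and Lefty2 were among them each time. None of 128 values of single members changed sign, and 4 gained a call, among them Nodal with equal library totals (1 member higher) and T with quantile normalization and without wild-type replicate 2. Members past 2-fold numbered 1 (Bmp4) with quantile normalization and 0 to 1 with 1 library left out. The members' median log2 fold change was −0.48 both unfiltered and with a mean of at least 1, where Mesp1 is also fitted. In the related lists, no filter gave 2 higher Bmp, 2 higher endoderm and 3 lower streak genes; a mean of at least 1 gave 1 lower endoderm gene. Equal library totals gave 10 higher Bmp, 5 higher Wnt and 3 lower streak genes. Another scaling, whose basis is not described, gave 11 higher Bmp, 5 higher Wnt, 4 lower Wnt and 3 lower streak genes and a members' median of −0.25, with Nodal called higher and Arntl, Gdf3, Axin2 and Dnmt3b not called. Quantile normalization gave 3 lower Bmp and 2 higher endoderm genes. Limma without the trend gave 3 higher Bmp, 4 lower Wnt and 3 lower streak genes, edgeR 4 higher Wnt genes, and DESeq2 2 higher Bmp, 4 lower Wnt, 2 higher endoderm and 1 lower streak gene. With 1 library left out, higher Bmp genes ranged from 3 to 6 (3 without Bmal1-/- replicate 2), lower Bmp genes from 1 to 2, higher Wnt genes from 2 to 4 and lower streak genes from 3 to 4; the lone library is assumed to vary like the others. The cause was not tested. With the replicate block, 4 members were lower, 2 Bmp genes were lower and 7949 genes were called, against 7639. The titles number the libraries of each label as experiments 1 and 2, and whether equal numbers mark a shared experiment is not stated; deviations of same-numbered libraries had a correlation of −0.02 across genes, from 2 pairs, which does not settle it. Depth limits Cer1, Mesp1 and Mixl1 most. A decrease or a small difference in Cer1 or Mesp1 was not detectable at this depth.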
